A study of Mus musculus with 10 samples.

Results

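The regions described here are the autosomal members of the class named uaProm in a table of H3K27ac regions from mouse cerebral cortex. They were chosen by name alone, as every row whose identifier begins with uaProm on chromosomes 1 to 19, which gave 1711 of the 50168 autosomal regions and of the 50898 regions of the whole table. The class name is not spelled out in the sources used here, and no meaning was assumed for it. It was set against the classes prom (16051 autosomal regions) and enh (32406), whose definitions are not given either. The table covers 10 mice of strain C57BL/6J aged 8 weeks, in 5 litters that each gave 1 wild type animal (WT) and 1 animal heterozygous for a Dnmt3a knockout allele (Het). Litters 1, 3 and 5 were male and litters 2 and 4 female. No Cre driver or promoter is named in the labels. For Het replicate 5, 1 label includes cKO although the genotype field is that of the other Het animals, and it was kept as Het. All animals otherwise share strain, age and tissue, with no treatment named. Regions are named by position in mm9, since no gene annotation of that build was used here; the cortical origin of the tissue was not checked against marker genes for the same reason.

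H3K27ac is an acetylation of the histone H3 tail that marks active promoters and active enhancers. At an active promoter it typically flanks the transcription start site on the neighbouring nucleosomes, and at enhancers it separates active elements from merely accessible ones. Dnmt3a is a de novo DNA methyltransferase that, in neurons after birth, deposits methylation at both CG and non-CG sites, and methylated regulatory DNA tends to carry less acetylation. Acetylated domains vary in length from a few nucleosomes to long stretches that cover many elements.

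All signal values are pseudo-counts, the authors' read counts adjusted to 1 common library size, so they compare libraries at equal depth and would hide a uniform change. Reads in regions, recovered from these values, ranged from 2771534 (WT replicate 5) to 8453140 (Het replicate 2), and the median uaProm region held 42 to 121 reads per library. Between any pair of libraries, log2 values over the uaProm regions correlated with r from 0.9384 to 0.9792, so no library was a copy of another. The uaProm numbering runs to 1789, of which 34 are not among the rows used here. In the class enh 12706 numbers are absent, so gaps to enh regions are upper limits set by the rows present.

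The uaProm regions were intermediate between prom and enh in width and in signal. Their median width was 2663 bp (quartiles 1748 and 4838 bp), against 3104 bp for prom and 2381 bp for enh, and in all 3 classes the narrowest region was 774 bp. Median signal, as the mean over the 10 libraries, was 80.9 pseudo-counts for uaProm (quartiles 42.0 and 157), 113 for prom and 42.0 for enh. Per kb of region the medians were 26.7 pseudo-counts for uaProm, 31.3 for prom and 17.8 for enh. These are descriptions of the regions, which are not replicates, and no test was applied to them.

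Both tails of the width distribution were also intermediate. Regions under 1500 bp made up 16.2% of uaProm (277 regions), 8.87% of prom and 23.8% of enh. Regions of 10 kb or more made up 7.25% of uaProm (124 regions), 11.0% of prom and 4.56% of enh. These 124 wide regions held 30.3% of all uaProm signal, and the strongest 5% of uaProm regions (86 regions) held 27.2%. Width and signal are tied by construction, since a wider region collects more reads: their logarithms correlated with r = 0.92 across the uaProm regions.

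Median signal per kb was higher in uaProm than in enh regions in all 5 width classes, and lower than in prom regions in all but the narrowest; the quartile ranges of uaProm and prom overlapped in every class. Width classes were cut at the quintiles of the uaProm widths. In the narrowest class, 774 to 1605 bp, the median was 20.9 pseudo-counts per kb for uaProm, 19.1 for prom and 17.3 for enh, so uaProm stood slightly above prom there. In the middle class, 2244 to 3265 bp, uaProm reached 32.2, prom 41.3 and enh 17.7, the widest spacing of the 5 classes. In the widest class, from 5624 bp, the 3 medians were 28.5, 31.3 and 20.1. The ratio of uaProm to enh medians ran from 1.21 in the narrowest class to 1.82 in the middle class, and that of uaProm to prom from 0.78 to 1.09. In the middle class 94.4% of uaProm regions lay above the enh median and 29.8% above the prom median. With signal matched as well as width, the uaProm median per kb was 29.3 against 29.8 in matched prom regions, and 28.8 against 23.7 in matched enh regions; here the signal classes themselves limit how far the values can part.

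**Figure D1:**
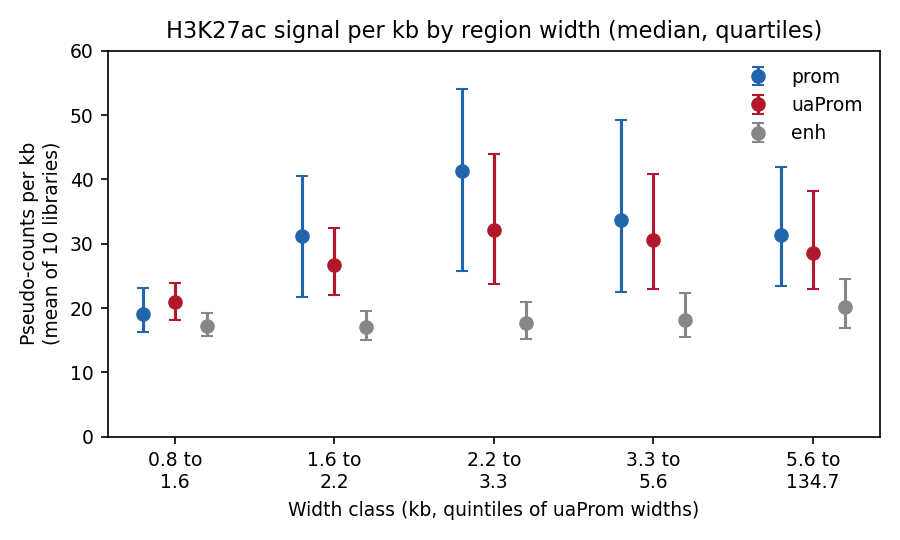
Signal per kb (pseudo-counts per kb, mean of 10 libraries) in 5 width classes, for prom (blue), uaProm (red) and enh (grey) regions on autosomes; points are medians over regions and bars the quartiles. The uaProm medians run from 20.9 to 32.2 and lie above the enh median in every class; in the narrowest class the uaProm median also lies above that of prom.

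The order of the classes was the same in every animal. Median uaProm signal per kb ranged from 25.1 (WT replicate 4) to 28.8 (Het replicate 5) over the 10 libraries. Prom medians ranged from 30.5 to 32.4 and enh medians from 15.7 to 20.5, so the ranges of the 3 classes did not overlap. The uaProm regions covered 7282 kb and held 4.18 ± 0.0605% of the autosomal signal (SD, n = 10), with 3.41% of the regions and 3.53% of the covered length. This share varied less between animals than those of the other classes: its coefficient of variation was 1.45%, against 3.44% for prom (50.9 to 56.3% of the signal) and 4.56% for enh (39.5 to 45.0%). The 3 shares make up the whole autosomal signal, so the large prom and enh shares move against each other by construction. No set matched to uaProm in size and signal was compared for this share.

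By genotype, the uaProm share of the signal averaged 4.18 ± 0.0390% over the WT animals and 4.18 ± 0.0805% over the Het animals (SD, n = 5 per genotype). The WT values ran from 4.13 to 4.22% and the Het values from 4.05 to 4.26%, so the WT range lay inside the Het range.

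The strongest uaProm regions were long domains. The first, chr14:64914507-65049198, was also the widest of the class at 134691 bp, and had 5285 pseudo-counts on average. Its WT values were 5191, 5229, 4720.5, 6160.3 and 5196 for replicates 1 to 5, and its Het values 4503, 5331, 5715, 5796 and 5008. The genotypes overlapped throughout: the highest value belonged to WT replicate 4 and the lowest to Het replicate 1. The next 4 were chr15:27695151-27742687 with a mean of 2085, chr3:122173456-122216146 with 1708, chr6:108248121-108288687 with 1583 and chr4:119677593-119727164 with 1495. They spanned 40566 to 49571 bp, at 30.2 to 43.9 pseudo-counts per kb. In all 5 of these regions Het lay below WT in litter 1 and above WT in litter 3. This was not particular to them. Over all strong regions, from 181 pseudo-counts, the median log2 difference had the same signs in uaProm, prom and enh. It was -0.104, -0.111 and -0.038 in litter 1, and 0.067, 0.039 and 0.083 in litter 3. The other regions among the 5 widest were chr7:56730492-56787270 (56778 bp, mean 1299) and chr8:119885659-119941800 (56141 bp, mean 1188), with 22.9 and 21.2 pseudo-counts per kb.

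Most uaProm regions lay well apart from the nearest prom region. The median gap, edge to edge, was 25358 bp (quartiles 9218 and 66754 bp). No regions of the table overlapped, whatever their class, so the lack of overlap is not particular to uaProm. The smallest gap between a uaProm and a prom region was 554 bp. The gap was 1 kb or less for 22 uaProm regions (1.29%), 1 to 5 kb for 257 (15.0%), 5 to 20 kb for 457 (26.7%), 20 to 100 kb for 691 (40.4%) and over 100 kb for 284 (16.6%). Prom regions lay a median of 22308 bp from the nearest other prom region, and enh regions 35084 bp from the nearest prom region. Matched for width and signal, the typical gap was 27038 bp for uaProm against 22611 bp for prom regions, and 26998 bp against 33164 bp for enh regions (means over strata of the stratum medians).

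**Figure D2:**
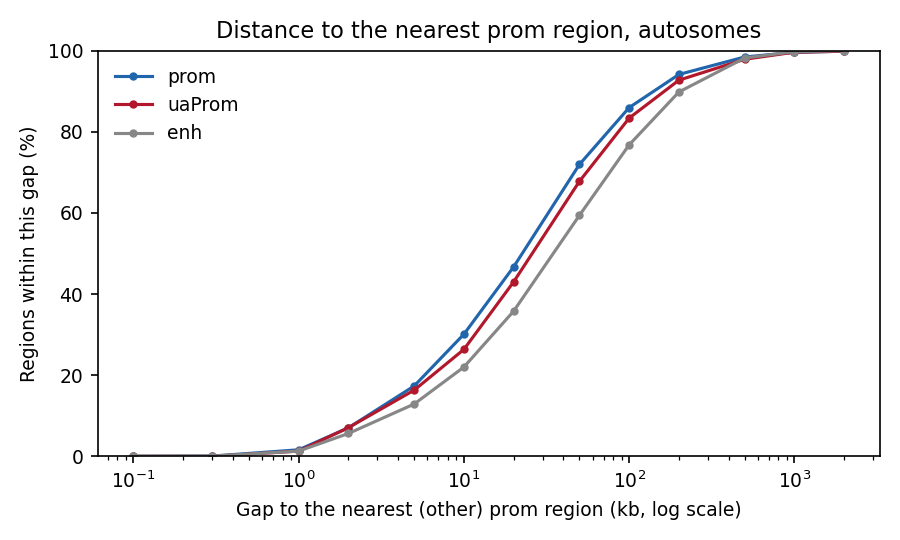
Cumulative percentage of autosomal regions (vertical axis) whose gap to the nearest prom region, or nearest other prom region for prom itself, is at most the value on the horizontal axis (kb, log scale). From 5 to 200 kb the uaProm curve runs between those of prom and enh, and at 500 kb it is the lowest of the 3 (97.9%, against 98.47% for prom and 98.21% for enh). The median gaps are 25358, 22308 and 35084 bp for uaProm, prom and enh.

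Signal per kb differed little with this distance. Median signal per kb was 24.3 for the 22 uaProm regions within 1 kb, 27.4 at 1 to 5 kb, 27.3 at 5 to 20 kb, 26.7 at 20 to 100 kb and 25.4 beyond 100 kb. Prom regions, graded by the gap to the next prom region, went from 24.4 within 1 kb to 33.1 beyond 100 kb. A uaProm region usually carried less signal than its nearest prom region: the median log2 ratio was -0.67 for signal and -0.25 for signal per kb. Still, 593 of 1711 (34.7%) had more signal than that neighbour, 665 (38.9%) had more per kb, and 38.4% were wider.

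The strongest uaProm regions within 1 kb of a prom region showed both arrangements. The 134691 bp domain on chromosome 14 lay 865 bp from chr14:65050063-65062368, with 39.2 pseudo-counts per kb against 44.7 in the prom region. On chromosome 15, chr15:103125659-103138496 had 46.4 per kb and its neighbour chr15:103139141-103140786, at 645 bp, only 15.4. On chromosome 4, chr4:97532149-97544946 had 32.4 and its neighbour chr4:97545752-97547902, at 806 bp, had 16.9. The reverse held on chromosomes 9 and 10. There, chr9:122490324-122532363 had 22.5 against 34.3 in chr9:122477164-122489334 at 990 bp, and chr10:59540645-59557886 had 24.6 against 50.6 in chr10:59558683-59585209 at 797 bp. The prom neighbours differed in width: those with less signal per kb than the uaProm region spanned 1645 and 2150 bp. Those with more spanned 12305, 12170 and 26526 bp.

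The uaProm regions farthest from any prom region differed widely in signal. The 5 most distant uaProm regions lay 1183706 to 2358482 bp away. The signal of 3 was below the class median of 26.7: chr8:52000644-52002834, chr15:16657665-16660330 and chr10:129978451-129979792 had 17.9, 22.9 and 23.5 pseudo-counts per kb. The remaining pair on chromosome 3 was dense: chr3:91883784-91886488 had 83.2 and chr3:25040916-25044907 had 79.0 pseudo-counts per kb, both above the 95th percentile of the class (56.2). The first of the pair had 221, 217, 248, 276 and 235 pseudo-counts in WT replicates 1 to 5 and 157, 230.3, 267, 226 and 171 in Het replicates 1 to 5. All 10 libraries carried it, and the genotypes overlapped.

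By the class of the nearest region and the number of enh regions nearby, uaProm regions resembled prom more than enh regions. The nearest region of any class was enh for 51.0% of uaProm, prom for 39.6% and another uaProm region for 9.35%; for prom regions the first 2 shares were 51.9% and 43.8%, and for enh regions 74.5% and 23.0%. Within 50 kb a uaProm region had on average 2.16 enh and 1.46 prom regions, where prom regions had 2.21 and 1.84, and enh regions 3.73 and 1.09. The prom count of uaProm thus lay between those of the other classes. Counts of enh regions, like gaps to them, rest on the rows present. Matched for width and signal, the nearest enh region lay a typical 23884 bp from a uaProm region and 7949 bp from an enh region.

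Some uaProm regions lay close to one another. Another uaProm region was present within 50 kb of 378 uaProm regions (22.1%), against 13.5% of prom and 10.1% of enh regions. Joined at gaps of up to 50 kb, they formed 144 pairs, 19 groups of 3 and 7 larger groups, while 1333 stood alone. The largest group had 7 members within chr13:21251213-21351539, with a median width of 1710 bp and a median of 27 pseudo-counts, both below the class medians. A group of 5 lay on the same chromosome at chr13:23504092-23557036 (median 26.9 pseudo-counts). The other group of 5, at chr7:19889055-19956121, was stronger, with a median of 138 pseudo-counts. None of these 3 groups held an enh region of the table. These groups were picked after their values were seen. By chromosome, there were 17.3 uaProm regions per 100 prom regions on chromosome 13 and 6.93 on chromosome 2, the highest and the lowest of the 19 autosomes.

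Het and WT animals were then compared to ask whether losing 1 Dnmt3a copy goes with a change of acetylation at these regions. The main test was limma on log2(pseudo-count + 1) over all 50898 regions, with sex as a term. It did not pair littermates. No uaProm region passed an adjusted p of 0.05, where 0.00196% of all regions did. At an unadjusted p under 0.05 there were 37 uaProm regions (2.16%), against 2.1% of all regions, 1.76% of matched prom and 2.45% of matched enh regions. Of the 37, 29 were higher in Het (1.69%, background 1.45%) and 8 lower (0.468%, background 0.648%). Limma-voom on the recovered reads also called 0 uaProm regions and gave 43 at an unadjusted p under 0.05 (2.51%, against 2.21% of all regions). A fit that blocked on litter instead of sex, and so paired littermates, passed 1 uaProm region, where 0.00589% of all regions passed. In that fit 70 uaProm regions (4.09%, background 4.63%) had an unadjusted p under 0.05, 43 of them higher in Het (2.51%, background 3.01%) and 27 lower (1.58%, background 1.62%). The uaProm shares at the unadjusted threshold thus lay near the background. With the sex term, the count of 37 became 76 (4.44%, background 5.44%) without Het replicate 3 and 59 (3.45%, background 3.68%) without WT replicate 2, so the background moved with it.

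The region called with the litter block was chr19:6904094-6905922, 1828 bp wide. WT replicates 1 to 5 had 38.9, 33.2, 30.1, 25.9 and 35.6 pseudo-counts. Het replicates 1 to 5 had 51.0, 58.2, 68.9, 59.8 and 61.5. Every Het value lay above every WT value, the closest being Het replicate 1 and WT replicate 1, which are littermates. The recovered reads behind these values were 49, 39, 28, 33 and 18 in WT and 52, 88, 52, 54 and 69 in Het, fewest in WT replicate 5. The log2 difference within litters was 0.38, 0.79, 1.17, 1.17 and 0.77, smallest in litter 1. The fitted log2 fold change was 0.86 (SE 0.16, 95% interval 0.53 to 1.18), or 1.81-fold. Its adjusted p by limma was 0.123 with the sex term and 0.00245 with the litter block. In the authors' deposited table its log2 fold change is 0.87 and its FDR 0.00179, the only uaProm region there with an FDR under 0.05, where 0.00393% of all regions are. The authors' FDR rests on 63596 regions tested, while the limma adjusted p covers the 50898 regions present. The call with the block ended without litter 2 (adjusted p 0.0567) and without litter 4 (adjusted p 0.135), both female, while the log2 fold change stayed between 0.78 and 0.98 in all 5 such fits. Its sex by genotype interaction, male minus female, was -0.21 (SE 0.33, limma unadjusted p 0.536).

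Its neighbours did not pass. The nearest prom region, chr19:6913413-6916315 at a gap of 7491 bp, had a log2 fold change of 0.12 (SE 0.12, limma unadjusted p 0.303), and the nearest enh region, chr19:6899561-6901469 at 2625 bp, had 0.13 (SE 0.20).

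A uaProm region on chromosome 17, chr17:17986611-17987932, came next by p among those higher in Het and did not pass either fit. Its WT values were 21.2, 19.5, 21.5, 15.6 and 26.4 pseudo-counts, and its Het values 45.2, 34.1, 38.8, 32.3 and 38.3. The groups did not overlap and Het was higher in 5 of 5 litters. The log2 fold change was 0.84 (SE 0.19), with a limma adjusted p of 1.00 with the sex term and 0.174 with the block. Its nearest prom region, chr17:17971612-17976592 at 10019 bp, had -0.05 (SE 0.10).

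The other 8 of the 10 uaProm regions with the smallest p and higher values in Het had log2 fold changes of 0.30 to 0.52, and none passed (limma adjusted p 1.00 each). They were picked as extremes, so their differences can overstate real ones. Examples are chr6:99043402-99048302, with 81.3 ± 13.2 in WT and 103 ± 9.44 in Het, and chr14:35582208-35583465, with 27.6 ± 5.15 and 39.2 ± 6.23 (SD, n = 5 per genotype). Among the 8, 6 were higher in Het in 5 of 5 litters and 2 in 4 of 5. The choice by small p and direction favours such agreement, so it is no separate support.

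Among uaProm regions with lower values in Het, the smallest p belonged to chr5:110522773-110524736. It had 88.5, 67.7, 73.1, 67.6 and 90.3 pseudo-counts in WT replicates 1 to 5 and 48.1, 59.9, 60.1, 55.4 and 64.3 in Het. No values overlapped, and the difference was largest in litter 1. The log2 fold change was -0.42 (SE 0.14), with a limma adjusted p of 1.00. The nearest prom region, chr5:110527173-110531984 at 2437 bp, had -0.02 (SE 0.10). Next came chr8:35953239-35954576, with 28.1, 35.2, 26.9, 37.4 and 17.5 in WT and 17.7, 27, 14, 24.2 and 12.2 in Het. Here the groups overlapped, with litter 5 low in both animals, and Het lay below WT in every litter. The fitted change was -0.60 on the log2 scale (SE 0.22, limma adjusted p 1.00). The 8 others of the 10 in this direction had log2 fold changes from -0.53 to -0.22, and none passed. One of them, chr12:3958302-3961366, singled out after its values were seen, also had no overlap. Its values were 103, 101, 113, 102 and 123 in WT and 88.4, 90.7, 100.1, 96.2 and 88.0 in Het, a log2 fold change of -0.22 (SE 0.11, limma unadjusted p 0.0557). These narrow margins separate groups whose means differ by less than in the chromosome 5 region.

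**Figure D3:**
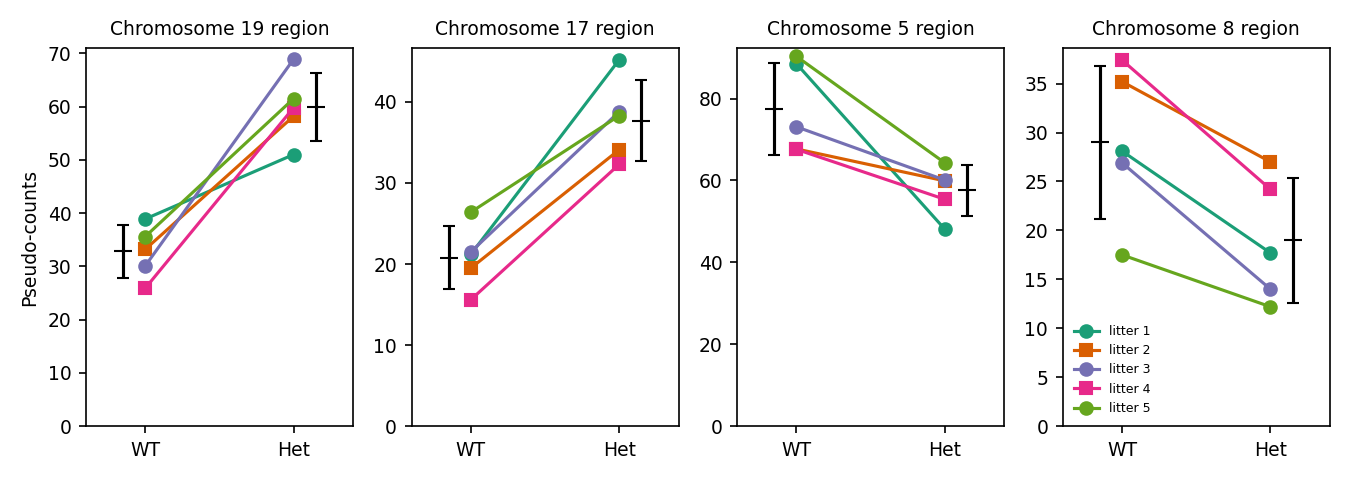
Pseudo-counts (vertical axes, from 0) of 4 uaProm regions in WT and Het animals; lines join littermates, circles are male and squares female litters, and black marks give the mean and SD of 5 animals. In the chromosome 19 region all Het values, 51.0 to 68.9, lie above all WT values, 25.9 to 38.9; in the chromosome 8 region the groups overlap although Het lies below WT in every litter.

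Counts of regions that differed one way in all litters also lay near the background. Het was higher in 5 of 5 litters in 51 uaProm regions (2.98%, background 3.53%) and lower in 5 of 5 in 48 (2.81%, background 2.46%). Matched prom regions gave 2.83% in either direction, and matched enh regions 3.47% and 3.00%. All Het values exceeded all WT values in 5 uaProm regions (0.292%, background 0.226%), and the opposite held in 2 (0.117%, background 0.149%).

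As a class the uaProm regions did not shift between genotypes by more than the litters varied. The median log2 difference, Het minus WT, was -0.019, 0.001, -0.016, 0.035 and 0.008 in litters 1 to 5. Its mean was 0.002 (SE 0.010, n = 5), with 3 litters above 0. The prom medians ran from -0.049 to 0.035 with a mean of -0.014 (SE 0.015), and the enh medians from -0.063 to 0.127 with a mean of 0.030 (SE 0.039). Over whole classes, the enh medians thus spread more between litters (SD 0.086) than those of prom (SD 0.034) or uaProm (SD 0.022). This order did not hold throughout in 5 signal classes cut at the uaProm quintiles. The SD for enh was below that for prom in class 1, the weakest (0.159 against 0.179), and in classes 4 and 5. In classes 2 and 3 it was above that for prom (in class 3, 0.062 against 0.035). Against uaProm, the enh SD was higher in classes 1 to 4 and lower in class 5 (0.05 against 0.067). The mean of the litter medians over all autosomal regions was 0.013 (SE 0.020).

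Matching for width and signal left no difference larger than the litter spread. Regions were divided into 5 width classes by 5 signal classes, cut at the uaProm quintiles, and medians were compared within each stratum. Against prom regions in 19 strata, which held 1710 of the 1711 uaProm regions, the difference was -0.005, -0.024, 0.046, 0.005 and 0.023 in litters 1 to 5, with a mean of 0.009 (SE 0.012, 95% interval -0.024 to 0.042). Against enh regions in 16 strata, which held 1688, it was -0.046, 0.047, -0.031, 0.035 and -0.004, with a mean of 0.000 (SE 0.018, 95% interval -0.050 to 0.050). The strata left out had fewer than 10 regions of the other class. In the second comparison both female litters lay above 0 and the 3 male litters below it, a split not seen in the first.

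**Figure D4:**
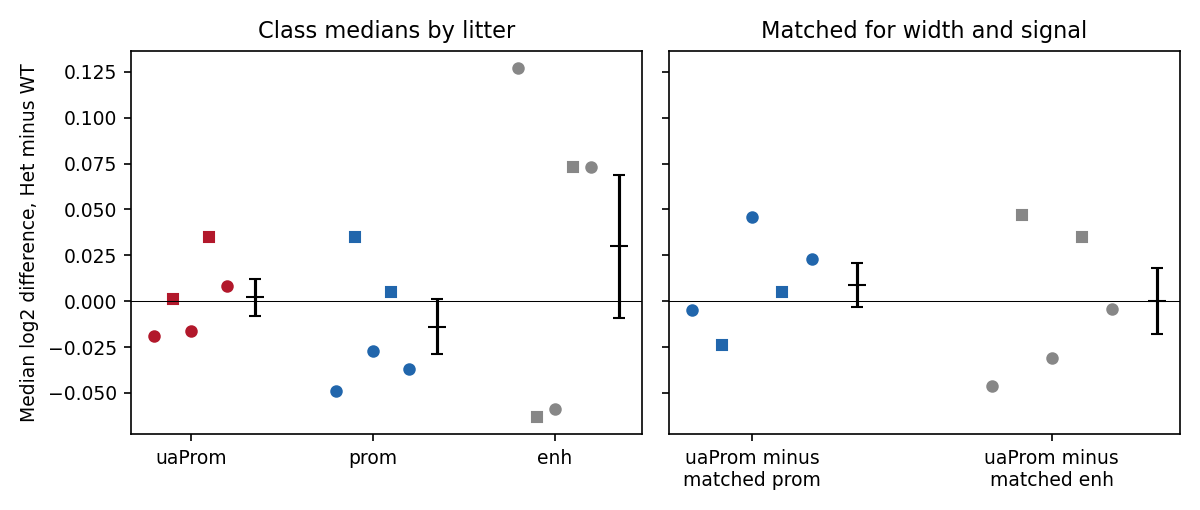
Median log2 difference between Het and WT littermates (vertical axis), for uaProm, prom and enh regions (left) and for uaProm minus prom or enh regions of matched width and signal (right); points are litters 1 to 5 from left to right, circles male and squares female, and black marks the mean and its SE. The uaProm medians lie between -0.019 and 0.035, within the range of the enh medians, and both matched means lie within 1 SE of 0.

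Within each litter, the medians of weak and strong uaProm regions had opposite signs. In the weakest of 5 signal classes (9.14 to 36.3 pseudo-counts, 343 regions) the medians were 0.141, -0.040, -0.162, 0.172 and 0.087 in litters 1 to 5. In the strongest class (from 181 pseudo-counts, 342 regions) they were -0.104, 0.043, 0.067, -0.021 and -0.025, of opposite sign to the weakest class in every litter. Means over litters were 0.040 (SE 0.062) and -0.008 (SE 0.030), so neither differed from 0 by more than the litter spread. Prom regions in the same signal classes gave the same signs, with 0.183, -0.048, -0.228, 0.199 and 0.090 in the weakest class and -0.111, 0.062, 0.039, -0.037 and -0.080 in the strongest. Enh regions gave 0.225, -0.086, -0.147, 0.151 and 0.104 in the weakest class and -0.038, -0.019, 0.083, -0.031 and 0.024 in the strongest. Their signs thus matched those of uaProm in the weakest class, but in litters 2 and 5 the strongest enh class had the sign of the weakest. Loess of each library against mean signal takes out such differences by construction, over all regions together; after it the weakest uaProm class had -0.054, 0.037, -0.014, 0.007 and -0.008, which shows only what the adjustment left.

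**Figure D5:**
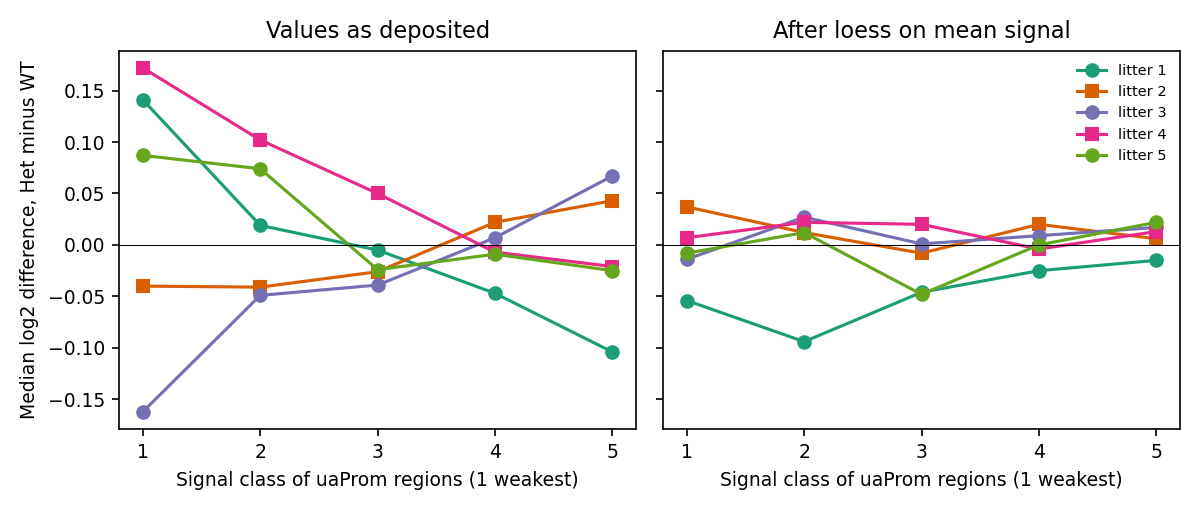
Median log2 difference between Het and WT littermates (vertical axis) in 5 signal classes of uaProm regions (horizontal axis, 1 weakest), for the values as deposited (left) and after loess on mean signal (right); each line is 1 litter, circles male and squares female. As deposited, the weakest class spans -0.162 to 0.172 between litters and every line crosses 0 before the strongest class; after loess, which centres differences at each signal level by construction, the weakest class spans -0.054 to 0.037.

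The Het minus WT differences were small at every distance from prom regions. The mean of the litter medians was 0.019 (SE 0.017) for the 22 uaProm regions within 1 kb of a prom region, 0.007 (SE 0.014) at 1 to 5 kb, 0.005 (SE 0.018) at 5 to 20 kb, -0.002 (SE 0.005) at 20 to 100 kb and 0.002 (SE 0.015) beyond 100 kb. By width class the means lay between -0.020 (SE 0.007), in the middle class, and 0.028 (SE 0.046), in the narrowest. Pairs of a uaProm region and its nearest prom region share their libraries. In the 279 pairs up to 5 kb apart, log2 fold changes correlated with r = 0.045. In the 284 pairs beyond 100 kb the value was 0.081. Log2 signal correlated with r = 0.28 and 0.072 in these pairs. For enh regions and their nearest prom region, log2 signal correlated with 0.187 and 0.112 at the same distances.

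The precision of single uaProm regions set what could be seen. The SD of the fitted log2 fold change over the 1711 regions was 0.134 and the median SE 0.131. The 95% interval lay within 1.5-fold in either direction for 87.2% of uaProm regions, 91.3% of prom and 73.3% of enh regions, and 3 uaProm regions (0.175%) had a fitted change beyond 1.5-fold, against 0.261% of all autosomal regions. Residual spread between animals was near that of matched regions, with a typical SD of 0.179 on the log2 scale against 0.182 for prom, and 0.180 against 0.193 for enh. Single litters ranged further. Over 1.5-fold higher in Het were 3.51, 1.64, 2.57, 5.67 and 4.21% of uaProm regions in litters 1 to 5, against 7.38, 1.84, 2.86, 7.67 and 6.25% of all autosomal regions. Over 1.5-fold lower were 1.64, 2.16, 5.55, 1.75 and 1.99% of uaProm regions, against 1.04, 4.01, 8.3, 2.35 and 2.74%. Matched prom regions gave 4.02, 1.41, 1.99, 5.66 and 3.94% higher, and 1.02, 2.54, 6.92, 1.46 and 1.97% lower. Matched enh regions gave 5.31, 1.52, 3.5, 5.17 and 4.82% higher, and 1.36, 3.11, 5.66, 2.24 and 2.91% lower. For lower values the litters fell in the same order in uaProm as in all autosomal regions. For higher values only litters 1 and 5 changed places.

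Whether the sexes differed in their response was tested as an interaction. No uaProm region passed by limma, and none of all regions did (0%), while 25 uaProm regions (1.46%, background 1.36%) had an unadjusted p under 0.05. That count was 51 (2.98%, background 2.34%) without WT replicate 2, 42 (2.45%, background 3.16%) without Het replicate 3 and 15 (0.877%, background 0.835%) without Het replicate 4. The smallest p belonged to chr9:60304308-60307105, where the Het minus WT log2 difference was 0.83 higher in males than in females (SE 0.26, limma adjusted p 1.00).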

How the data were processed

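H3K27ac ChIP-seq libraries (antibody Abcam ab4729) came from 10 cortices, 5 Het and 5 WT, grouped by the genotype labels. Bowtie2, edgeR and mm9 are named, per the submitters' processing notes; tool versions, the calling of regions and class definitions were not given in the sources used here. Each deposited signal value is a pseudo-count for 1 region and library, per the file headers. A log2 fold change, log2 CPM, p-value and FDR for each region are also deposited by the authors. Reads were recovered by inverting the negative binomial quantile adjustment at a dispersion of 0.01509, with a mean for each genotype; 100% of values came within 0.1 read of a whole number, and 9 deposited zeros were set to 0 reads.

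limma 3.58.1 in R 4.3.3 (trend, robust) was fitted to log2(value + 1) over 50898 regions, with Benjamini-Hochberg adjustment at 0.05; no filter was applied, and 1639 members had a mean of at least 20. Pseudo-counts are not counts, so no count test was run on them; limma-voom was run on recovered reads. Fits and recovery were tested on simulated data. Litters come from labels and headers: littermates' deviations from group means correlated at 0.232, 0.123, 0.080, 0.365 and 0.419 in litters 1 to 5, but Het replicates 2 and 3 correlated best with WT replicate 4. Strata with fewer than 10 comparison regions were left out. Gaps run edge to edge. Named regions are those past the threshold with either term, the 10 with the smallest p per direction, and the 5 strongest, widest, farthest from prom and, within 1 kb of prom, strongest; the text gives a part of them. Members and lists were chosen with earlier results of these data known. Coordinates are as deposited. No genome or annotation of mm9 was used, so genes, cell type markers and sequences were not analysed here.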

Additional observations from a re-analysis of the deposited data

Results flagged for a closer look

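One result, flagged from the values themselves, split by sex. The Het minus WT difference of uaProm regions relative to enh regions of matched width and signal averaged -0.027 in the 3 male litters, all below 0, and was 0.047 and 0.035 in the female litters 2 and 4. This difference between the sexes was not tested, and male litter 5 lay at -0.004. Against matched prom regions there was no such split: the male litters had -0.005, 0.046 and 0.023, the female litters -0.024 and 0.005. In 87 groups of 5 values no library stood out from the other 4 by Dixon's criterion.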

How the results depend on the processing

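Without the litter block, 0 uaProm regions passed under each other scaling, pseudocount, filter and threshold. None passed without the sex term, by limma-voom, on autosomes alone or with any single library left out. With single libraries left out, 30 to 76 had a limma unadjusted p under 0.05 (1.75 to 4.44%, background 1.67 to 5.44%). The replicate block, which pairs littermates, gave 1 region, chr19:6904094-6905922; with limma-voom (adjusted p 0.0039) or loess (adjusted p 0.00537) the block also gave 1, and without single litters 0 to 1. Without the block its adjusted p ran from 0.0687 to 1.00. The block with limma-voom or loess or without a litter, and recovered reads for class medians, were added after seeing the data. No call on the other 19 regions changed, and none of the 20 reversed. The uaProm median lay between -0.019 and 0.007, so no sign is drawn from it. Matched differences lay between 0.000 and 0.017 for prom and between -0.012 and 0.012 for enh. The interaction gave 0 with the block, with a pseudocount of 5 and without each library. With the block, 54 uaProm regions (3.16%, background 3.59%) had a limma unadjusted p under 0.05. Other settings were not run for the interaction. The median gap to prom was 31894 bp from centre to centre. Depth limits weak regions most: WT replicate 5 had a median of 42 reads per uaProm region.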
